A study of Mus musculus with 34 samples.

Results

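The serpins are a family of protease inhibitors and their relatives, described here across sorted mouse mesothelial cells and fibroblasts. Members were taken by gene symbol, namely Serpin, then a, b, c, d, e, f, h or i, then a number, which leaves out Serping1. Of 51826 gene identifiers 67 carried such a symbol, and the 39 with a total of at least 100 counts over 34 libraries were analysed. These are 17 of 29 members of clade A, 12 of 28 of clade B, all 3 of clade E, both of clade F, both of clade I, and the only members of clades C, D and H. Serpina11 with 199 counts and Serpina9 with 224 lay just inside the minimum, Serpina16 and Serpina3b with 98 each just outside it, and 3 of the 28 members left out had no count.

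The series addressed how transcription in stromal cells depends on the tissue around them, by sequencing polyadenylated RNA of cells sorted straight into TRIZOL. Mesothelial cells, the flat lining of the body cavities, were sorted as CD45-, CD31-, Epcam-, PDPN+ and PDGFRA- from omentum, mesentery and epididymal fat, with 3 libraries each. Fibroblasts were sorted with the same gate but as PDGFRA+ from these 3 depots and from lymph node, bone, brown adipose tissue and inguinal fat, with 3 libraries each, and from spleen and pancreas, with 2 each. Omentum, mesentery and epididymal fat are labelled visceral, and inguinal fat and brown adipose tissue subcutaneous. The lymph node libraries carry the tissue label sLN, and every library is labelled GFPneg. Strain, sex, age, genotype and number of animals are not given in the sources used here, nor is the reporter behind the GFP label. Whether replicate libraries stem from different animals is not stated, and p-values therefore cover the spread among libraries alone, which may be technical.

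Most serpins present a reactive loop to a serine protease, are cut, and then hold the protease in an inactive covalent complex. Clade A members are largely secreted and best known from liver and plasma, clade B members mostly stay inside the cell and guard it against proteases of its own or of immune granules, and clade E members restrain plasminogen activators and thrombin around cells. Some members inhibit nothing: Serpinh1, also called HSP47, is a chaperone that helps collagen fold in the endoplasmic reticulum, and Serpinf1 is the secreted factor PEDF. In GENCODE M21 on GRCm38, the 17 reported clade A genes lie in an array on chromosome 12 between 103614786 and 104414329, and the 12 clade B genes in arrays on chromosome 1 between 106861173 and 107610484 and on chromosome 13 between 32842092 and 34002794, with local copies that other mammals lack.

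The 34 libraries held 28.7 M to 42.3 M counts, with a median of 33.5 M, and all 39 members passed the filter that left 25705 genes for testing. Of the sort markers, Pdgfra had 4.43 to 13.5 CPM (counts per M of the library total after TMM scaling) in mesothelial libraries and at least 367 CPM in every fibroblast library, and 14 mesothelial markers summed to 11776 to 18522 CPM in mesothelial libraries and to 10.7 to 1162 CPM in fibroblasts. Markers of fibroblasts separated the cell types less: 10 of them, led by Dcn, summed to 27021 to 35914 CPM in omentum mesothelial cells, against 32589 to 39869 CPM in omentum fibroblasts, which overlap, and to 20810.0 to 27867 CPM in mesentery and epididymal mesothelial cells, against 38548 to 52365 CPM in the fibroblasts of these depots. For the 14 mesothelial markers, omentum fibroblasts stood highest among the fibroblasts, with a sum of 797 to 1162 CPM. Transcripts of 12 pancreatic acinar markers summed to at least 1000 CPM in 10 acinar-rich libraries, which are both pancreas libraries, all 3 omentum fibroblast libraries, omentum mesothelial replicate 1, mesentery mesothelial replicates 1 and 2, and mesentery fibroblast replicates 1 and 3. Markers of epididymal epithelium reached 20.6 CPM in epididymal mesothelial replicate 2 and 16.7 CPM in epididymal fibroblast replicate 2, and 13.3 to 17.1 CPM in inguinal and brown adipose fibroblasts. Rnase10 alone held a mean of 15.2 CPM of a mean sum of 15.4 CPM in inguinal fibroblasts, and 15.0 of 15.3 CPM in brown adipose ones. The highest marker was Lcn5 in epididymal mesothelial cells (mean 2.58 CPM) and Rnase10 in epididymal fibroblasts (mean 5.93 CPM). Calls that were lost without the acinar-rich libraries are named as such; omentum and pancreas fibroblasts could not be tested without them.

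Serpin transcripts made up 0.354% to 0.650% of all counts in mesothelial libraries and 0.457% to 1.33% in fibroblast libraries, and Serpinh1 alone held 49.8% to 77.7% of that sum. Per kilobase of exon, Serpinh1 was the most abundant member in all 12 groups. The next was Serpinb6b or Serpinb1a in the 3 mesothelial groups, Serpina3n in lymph node fibroblasts and Serpinf1 in the other 8 fibroblast groups. The balance of clades A and B differed widely between groups. Clade A members held 0.555% to 2.34% of the clade A and B counts in mesothelial libraries, 66.8% to 75.5% in lymph node fibroblasts, 34.9% to 43.9% in spleen fibroblasts and 16.1% to 31.3% in fibroblasts of the other 7 tissues. Of the 39 members 19 reached a mean of 10 CPM in some group, 11 reached 100 CPM, and 11 stayed under 2 CPM in every group. Lymph node fibroblasts had the highest mean of 15 members, epididymal mesothelial cells of 5 and omentum mesothelial cells of 4.

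The members that stayed under a mean of 20 CPM in every group reached their highest mean in different places. In lymph node fibroblasts these were Serpina1a, Serpina1c, Serpina1d, Serpina1e, Serpina3h, Serpina11 and Serpinb1b, of which the highest single library was 18.9 CPM, of Serpina1a. In epididymal mesothelial cells they were Serpinc1 (up to 3.10 CPM), Serpina1f (up to 4.88 CPM), Serpinf2 (up to 2.28 CPM) and Serpina9 (up to 1.14 CPM), in omentum mesothelial cells Serpinb10 (up to 1.37 CPM) and Serpine3 (up to 0.685 CPM), and in mesentery mesothelial cells Serpinb5 (up to 3.86 CPM). In fibroblasts they were Serpina12 in bone, Serpinb7 in brown adipose tissue, Serpinb6c in epididymal fat, Serpind1 in omentum, Serpini1 in pancreas, and Serpinb9b and Serpina3m in spleen. Within the tissue named, library values went up to 7.62 CPM for Serpina12, 1.73 for Serpinb7, 4.75 for Serpinb6c, 1.12 for Serpind1, 8.14 for Serpini1, 2.62 for Serpinb9b and 8.44 for Serpina3m.

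**Figure D1:**
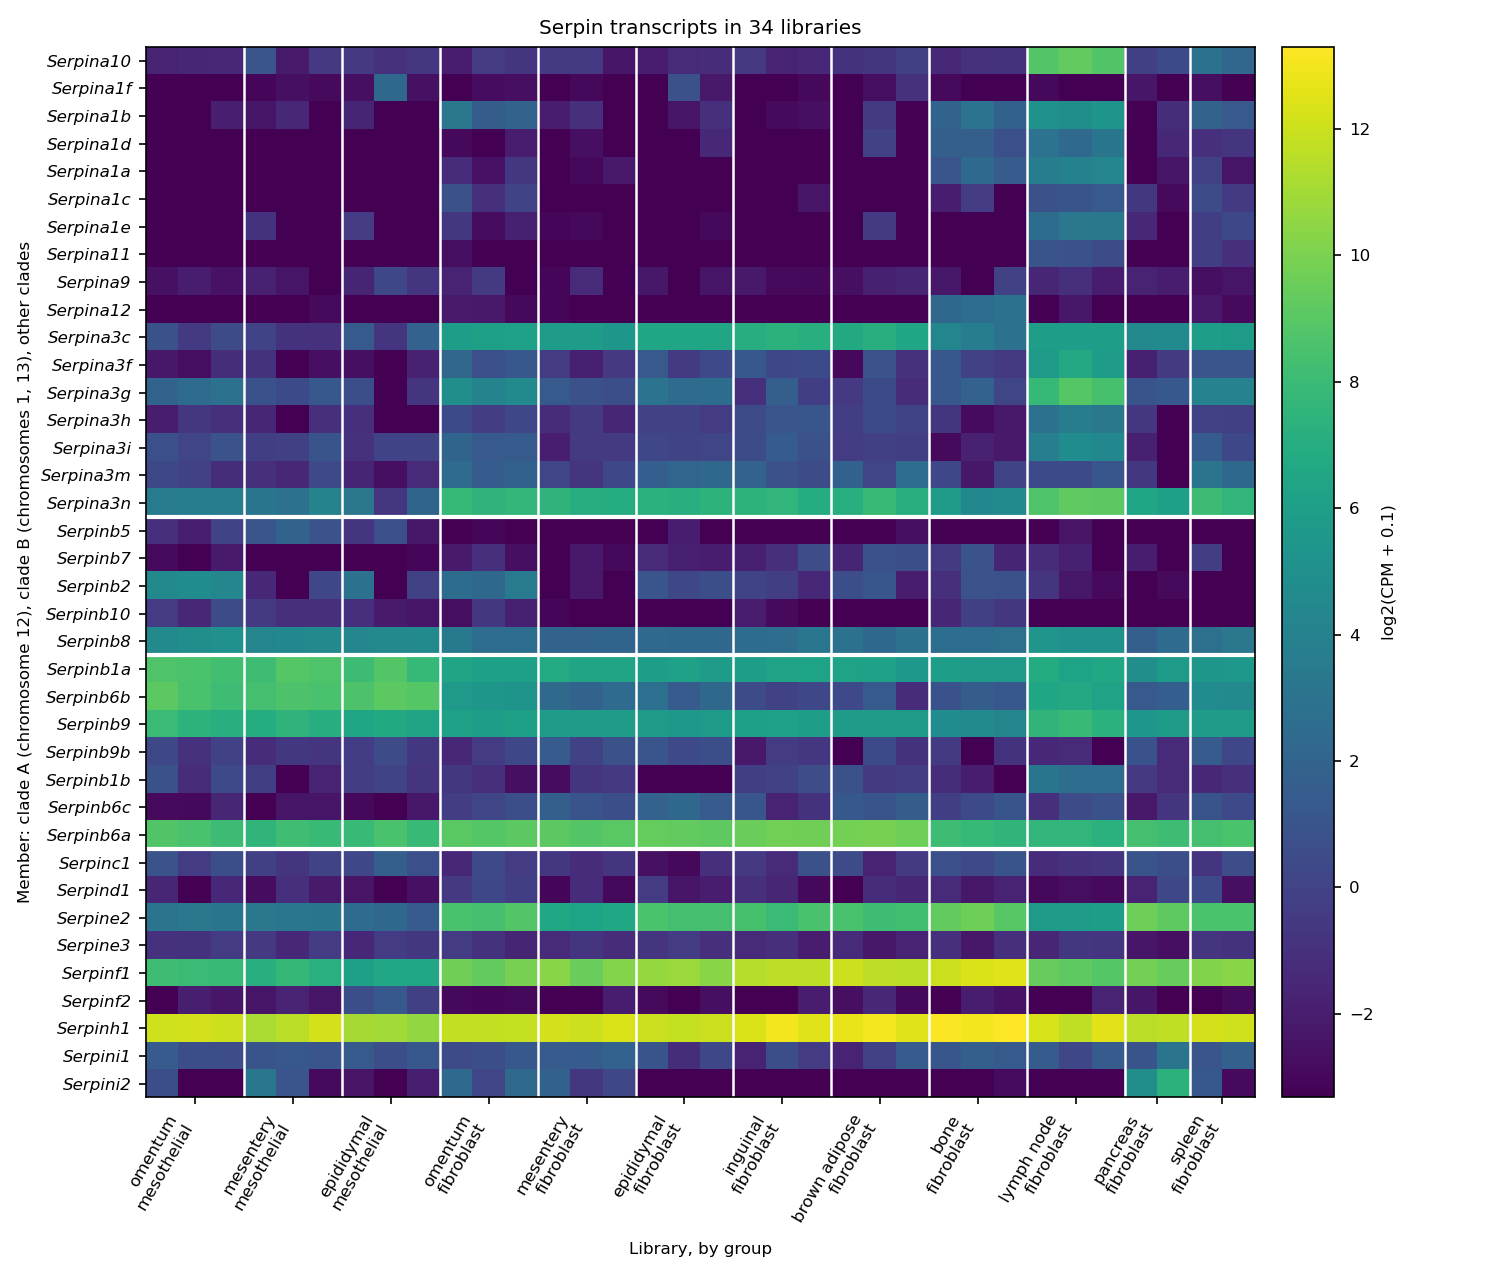
Level of 38 of the 39 serpins, as log2(CPM + 0.1), with members down the page by clade and the 34 libraries across by group. Serpinh1 is high in every column, many clade A members are brightest in lymph node fibroblasts, and the clade B members Serpinb6b and Serpinb1a are high in the 9 mesothelial columns.

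Mesothelial cells and fibroblasts of the same 3 depots differed in the family, and over the mean of depots the direction went largely by clade. The intracellular inhibitors Serpinb6b, Serpinb1a, Serpinb8 and Serpinb9 were higher in mesothelial cells, while the secreted Serpina3n, Serpina3c, Serpine2 and Serpinf1 were lower. The abundant clade B member Serpinb6a went against its clade and was called lower in mesentery and epididymal fat. Over the mean of the 3 depots 20 of the 39 members were called, 10 higher and 10 lower in mesothelial cells, beside 21.4% of all genes tested (12.3% higher and 9.08% lower). A call needs a Benjamini-Hochberg adjusted p under 0.05 over all genes tested in edgeR's quasi-likelihood test and a log2 fold change of at least 1 either way. Errors given after ± for log2 fold changes are approximate standard errors, taken as the absolute log2 fold change over the square root of the test's F value. By clade, 0 of 17 clade A members were called higher and 7 lower, 8 of 12 clade B members were called higher and 1 lower, and of the 10 other members 2 were called higher and 2 lower. Among members with a count in each of the 6 groups, the median log2 fold change was -2.11 for 10 clade A members and 1.62 for 8 clade B members, beside 0.11 for 23504 genes.

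Within single depots, 17 members were called in omentum (beside 16.9% of all genes), 13 in mesentery (beside 18.3%) and 19 in epididymal fat (beside 24.7%). Of these, 5 were higher in omentum mesothelial cells (beside 8.1% of all genes), 6 in mesentery (10.8%) and 8 in epididymal fat (16.6%), while 12 (8.79%), 7 (7.53%) and 11 (8.16%) were lower. Serpinb1a, Serpinb5, Serpinb6b and Serpinb8 were called higher, and Serpina3c, Serpina3n, Serpinb6c, Serpine2 and Serpinf1 lower, in all 3 depots. No member was called higher in 1 depot and lower in another. Of 17 clade A members, 8 were called lower in omentum, 2 in mesentery and 6 in epididymal fat, and 0, 0 and 1 higher. Of 12 clade B members, 5, 6 and 5 were called higher in the same order, and 1, 3 and 2 lower. In mesentery the median log2 fold change of the 13 clade A members with a count in both groups was -0.11, beside 0.09 over 24259 genes. In bulk samples, fewer cells of a type and less RNA per cell cannot be told apart.

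**Figure D2:**
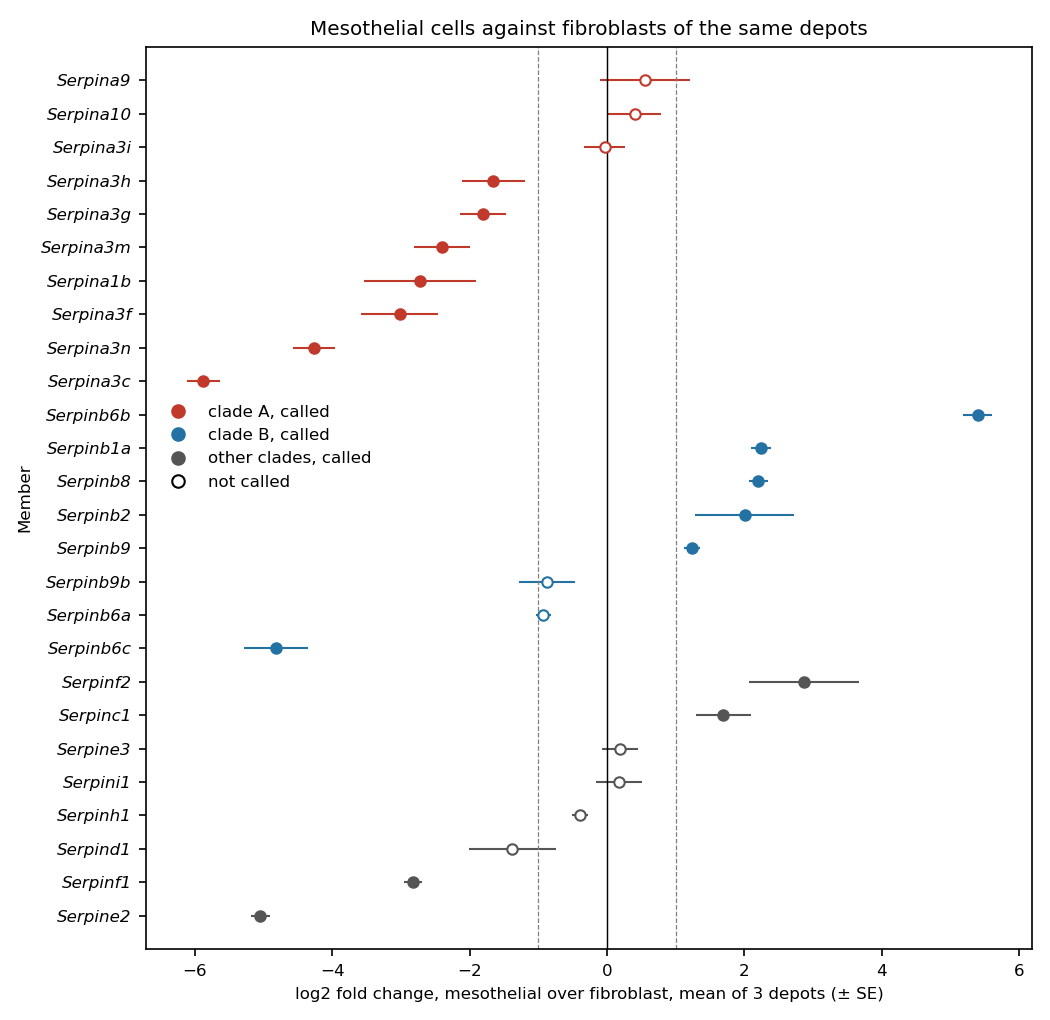
Fitted log2 fold change of mesothelial cells over fibroblasts, as the mean of the 3 depots, for 26 serpins with a count in each of the 6 groups; bars are the standard error, filled points are called members and colours mark the clades. Serpinb6b at 5.39 is the highest of those drawn and Serpina3c at -5.88 the lowest, and the called clade A members all lie left of 0.

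The collagen chaperone Serpinh1 was abundant in both cell types, and in epididymal fat it was lower in mesothelial cells. It had 4428, 4543 and 4141 CPM in omentum mesothelial cells, against 3441, 3521 and 3679 CPM in omentum fibroblasts. In mesentery it had 2343, 2984 and 4887 CPM in mesothelial cells, against 4629, 4250.1 and 5164 CPM in fibroblasts. Omentum mesothelial libraries were all above the omentum fibroblasts and those of mesentery overlapped with theirs, with log2 fold changes of 0.30 ± 0.21 and -0.46 ± 0.21 (adjusted p = 0.316 and 0.129, not called). In epididymal fat it had 2083, 2079 and 1587 CPM in mesothelial cells, against 4029, 3648 and 4019 CPM in fibroblasts. Every epididymal mesothelial library lay below every epididymal fibroblast library, with a log2 fold change of -1.02 ± 0.21 (SE, adjusted p = 3.16e-04). Without epididymal mesothelial replicate 3 it was -0.90, short of the required size. Of its 16 tested partners in collagen folding, which are prolyl and lysyl hydroxylases, isomerases and related genes, 1 was called higher over the mean of 3 depots and 2 lower, beside 21.4% of all genes called in that comparison, as given above. These were the prolyl 3-hydroxylase complex member P3h4 at 2.98 ± 0.19 and the hydroxylases P4ha2 at -2.13 ± 0.13 and P3h2 at -1.54 ± 0.39, and the list's median was -0.35.

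Serpinf1, the secreted PEDF, was lower in mesothelial cells of every depot. It had 284, 257 and 238 CPM in omentum, 139.9, 215 and 149.96 CPM in mesentery and 70.7, 95.8 and 95.2 CPM in epididymal mesothelial cells. The fibroblasts of these depots had 838, 642 and 932 CPM, 1314, 726 and 1188 CPM and 1633, 1755 and 1284 CPM, in the same order. No mesothelial library reached any fibroblast library of its depot, and the log2 fold change over the mean of depots was -2.82 ± 0.13 (SE, adjusted p = 1.46e-18). Its reported cell surface partner Pnpla2 is among 8 serpin receptors. Over the mean of depots 1 of the 8 was called higher and 3 lower, beside 12.3% and 9.08% of all genes, and their median log2 fold change was -0.13. Lrp2 was called higher (4.4 ± 0.23), and the endocytic receptors Lrp1 (-1.67 ± 0.12) and Vldlr (-2.48 ± 0.13) were among those called lower.

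Serpine2, a protease nexin, which binds thrombin and plasminogen activators at the cell surface, had a wide gap between the cell types. It had 8.32, 9.64 and 8.66 CPM in omentum, 9.72, 8.95 and 8.73 CPM in mesentery and 5.55, 4.53 and 2.46 CPM in epididymal mesothelial cells. In fibroblasts it had 363, 329.8 and 457 CPM in omentum, 101, 78.1 and 95.3 CPM in mesentery and 378, 334 and 332 CPM in epididymal fat. The groups did not overlap in any depot, and the log2 fold change over the mean was -5.05 ± 0.14 (SE, adjusted p = 3.28e-24). Serpine3, a poorly known relative of it, stayed at 0.253 to 0.685 CPM in mesothelial cells and 0.234 to 0.683 CPM in the fibroblasts of these depots, and 15.7% of its 50-base windows also occur in Ints6, so its counts are uncertain.

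The plasma inhibitors of coagulation and fibrinolysis were present only at low level. Serpinc1, antithrombin, had 1.83, 0.661 and 1.47 CPM in omentum, 0.784, 0.475 and 0.970 CPM in mesentery and 1.05, 3.10 and 1.53 CPM in epididymal mesothelial cells. The fibroblasts of these depots had 0.279, 1.14 and 0.673 CPM, 0.531, 0.327 and 0.455 CPM and 0.0708, 0.0297 and 0.402 CPM, in the same order. It rose over the mean of depots by 1.69 ± 0.40 (SE, adjusted p = 7.97e-04) on the log2 scale, although the groups overlapped in omentum and mesentery. A part of its windows, 33.6%, also occurs in Zbtb37 and other genes. Serpinf2, the inhibitor of plasmin, had 1.51, 2.28 and 0.798 CPM in epididymal mesothelial cells, against 0.0354, 0 and 0.0618 CPM in epididymal fibroblasts. These sums, 160 and 3 counts, did not overlap by library, and the gene was called higher in epididymal fat (adjusted p = 3.32e-06) and over the mean of depots (adjusted p = 0.00297). Serpind1, heparin cofactor II, had 0.247, 0 and 0.263 CPM in omentum mesothelial cells, against 0.583, 1.12 and 0.761 CPM in omentum fibroblasts, and was called lower there (-2.29 ± 0.77, adjusted p = 0.0263). That call was lost without omentum mesothelial replicate 2 (adjusted p = 0.151), without omentum fibroblast replicate 2 (0.0971) and with DESeq2 (0.146).

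Some of the proteases and cofactors that these inhibitors meet also differed between the cell types. Of 10 genes of plasminogen activation 1 was called higher over the mean of depots and 4 lower: the urokinase receptor Plaur was higher (3.28 ± 0.16), and vitronectin Vtn (-5.97 ± 0.35), a plasma and matrix adhesion protein, Thbs1 (-3.43 ± 0.31) and Lrp1 were among the lower. Of 14 coagulation genes 1 was called higher and 7 lower, among them Pros1 (-2.05 ± 0.08), the thrombin receptor F2r (-2.80 ± 0.23) and tissue factor F3 (-1.39 ± 0.13). Of 12 cathepsins 2 were called lower and 0 higher, Ctsk (-4.96 ± 0.12) and Ctsh (-4.08 ± 0.12), and of 9 granule proteases 1 was called lower, Prtn3. Over all genes, 21.4% were called in this comparison, so the 5 of 10, 8 of 14, 2 of 12 and 1 of 9 stand beside that share. Over genes with a count in all 6 groups the median log2 fold changes were -0.30 for 9 plasminogen activation genes, -1.13 for 13 coagulation genes and -0.50 for 12 cathepsins. Only 1 of the 9 granule proteases had a count in all 6 groups, so no median is given for that list.

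The promoters of 5 clade A members of the Serpina3 array, the mouse relatives of human antichymotrypsin, are shown because their levels differ in pattern: Serpina3n and Serpina3c were high in fibroblasts of nearly every tissue, while Serpina3g, Serpina3f and Serpina3i were high in lymph node. Each is 250 bases before to 50 bases after the RefSeq start (GRCm38.p6), 5′ to 3′ on the gene's own strand. Capitals mark matches on either strand to the interferon-gamma-activated (GAS) motif TTCNNNGAA, to the NF-kB consensus and to the TATA box TATAAA.
Serpina3g (chr12:104235897-104236196, plus strand): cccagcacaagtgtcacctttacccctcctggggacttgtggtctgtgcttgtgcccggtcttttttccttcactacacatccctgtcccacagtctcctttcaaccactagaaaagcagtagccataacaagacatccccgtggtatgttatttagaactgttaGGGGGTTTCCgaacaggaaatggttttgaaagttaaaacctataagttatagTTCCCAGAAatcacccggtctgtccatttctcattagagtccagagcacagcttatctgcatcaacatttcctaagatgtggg
Serpina3f (chr12:104214294-104214593, plus strand): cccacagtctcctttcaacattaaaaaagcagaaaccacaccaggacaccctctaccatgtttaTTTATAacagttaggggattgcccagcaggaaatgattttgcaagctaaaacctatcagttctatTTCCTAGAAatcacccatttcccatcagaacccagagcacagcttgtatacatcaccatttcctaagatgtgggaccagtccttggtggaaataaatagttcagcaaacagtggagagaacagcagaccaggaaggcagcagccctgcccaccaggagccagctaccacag
Serpina3i (chr12:104262872-104263171, plus strand): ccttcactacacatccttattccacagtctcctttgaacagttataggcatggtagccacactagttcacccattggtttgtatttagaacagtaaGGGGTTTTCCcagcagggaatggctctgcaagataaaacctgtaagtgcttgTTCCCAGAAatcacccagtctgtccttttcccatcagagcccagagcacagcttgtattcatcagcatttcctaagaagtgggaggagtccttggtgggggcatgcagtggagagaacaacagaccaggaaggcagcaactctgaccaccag
Serpina3n (chr12:104406458-104406757, plus strand): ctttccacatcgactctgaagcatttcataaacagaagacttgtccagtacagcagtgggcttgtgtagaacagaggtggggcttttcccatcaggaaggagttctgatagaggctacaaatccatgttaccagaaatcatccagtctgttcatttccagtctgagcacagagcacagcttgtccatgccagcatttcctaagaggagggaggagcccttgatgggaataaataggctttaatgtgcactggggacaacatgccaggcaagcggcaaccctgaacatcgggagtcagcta
Serpina3c (chr12:104153823-104154122, minus strand): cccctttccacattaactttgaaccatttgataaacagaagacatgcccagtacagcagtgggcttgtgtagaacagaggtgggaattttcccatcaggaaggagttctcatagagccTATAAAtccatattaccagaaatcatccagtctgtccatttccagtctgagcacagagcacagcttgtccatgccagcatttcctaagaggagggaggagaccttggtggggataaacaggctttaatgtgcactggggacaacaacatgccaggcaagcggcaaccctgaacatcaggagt
The GAS letters were found in Serpina3g, Serpina3f and Serpina3i and not in the windows of Serpina3n and Serpina3c; over 32851 mouse promoters of the same length 8.30% hold them. The NF-kB consensus was found in Serpina3g and Serpina3i (8.46% of promoters) and TATAAA in Serpina3c and, on the reverse strand, Serpina3f (13.6%). No match to the interferon-stimulated response element, GAAA repeated after any 2 bases (3.44% of promoters), or to the AP-1 motif TGANTCA (7.81%) lay in these 5 windows. In pairwise alignments over the whole windows, with gaps allowed, the Serpina3n and Serpina3c promoters shared 275 identical bases of 300, and the other 9 pairs 150 to 224. The 5 were chosen for their levels, so the motifs support nothing about them. Among other members the GAS letters were also found in Serpinb2, Serpina1f, Serpina11 and, with 2 matches, Serpinb6a, and not in Serpina1b. A match is a description of letters and not of a bound factor.

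Serpina3n, a secreted inhibitor of granzyme B and leukocyte elastase in mouse, was lower in mesothelial cells of every depot. It had 11.9, 13.2 and 13.3 CPM in omentum, 8.79, 7.21 and 16.8 CPM in mesentery and 9.54, 0.507 and 3.95 CPM in epididymal mesothelial cells. The fibroblasts had 225, 178 and 205 CPM in omentum, 181, 134 and 122 CPM in mesentery and 159.5, 141 and 172 CPM in epididymal fat. Every mesothelial library lay below every fibroblast library, with a log2 fold change of -4.26 ± 0.30 (SE, adjusted p = 4.92e-12) over the mean of depots. Serpina3c, with the promoter most like that of Serpina3n, had 1.66, 0.606 and 1.26 CPM in omentum, 0.903, 0.443 and 0.407 CPM in mesentery and 2.48, 0.475 and 3.63 CPM in epididymal mesothelial cells. In fibroblasts it had 62.6, 68.9 and 73.6 CPM in omentum, 57.9, 57.3 and 44.2 CPM in mesentery and 85.3, 90.7 and 90.1 CPM in epididymal fat. Here too the libraries of the cell types did not overlap, and the log2 fold change was -5.88 ± 0.24 (SE, adjusted p = 4.21e-19).

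Serpina3g, which in mouse acts inside cells against cathepsins, was lower in omentum and epididymal mesothelial cells but close to the fibroblasts in mesentery. It had 3.84, 5.51 and 7.29 CPM in omentum, 1.71, 1.2 and 2.31 CPM in mesentery and 1.51, 0 and 0.502 CPM in epididymal mesothelial cells. Fibroblasts had 30.0, 17.0 and 24.4 CPM in omentum, 2.46, 1.63 and 1.49 CPM in mesentery and 7.79, 5.59 and 5.72 CPM in epididymal fat. The groups overlapped in mesentery and in no other depot, and the log2 fold change over the mean was -1.81 ± 0.33 (SE, adjusted p = 6.50e-05). Serpina3f had 0.106, 0.0551 and 0.342 CPM in omentum, 0.452, 0 and 0.0625 CPM in mesentery and 0.0570, 0 and 0.182 CPM in epididymal mesothelial cells. Its fibroblast values were 4.31, 1.59 and 2.20 CPM in omentum, 0.627, 0.178 and 0.577 CPM in mesentery and 2.44, 0.624 and 1.14 CPM in epididymal fat. It fell over the mean of depots (-3.02 ± 0.56, adjusted p = 3.97e-05), with overlapping libraries in mesentery. Serpina3m (-2.40 ± 0.40, adjusted p = 8.58e-06) and Serpina3h (-1.66 ± 0.46, adjusted p = 0.00379) were called lower as well, at 0.0633 to 1.16 CPM and 0 to 0.524 CPM in mesothelial libraries, against 0.475 to 5.55 CPM and 0.243 to 1.22 CPM in fibroblasts of the 3 depots. These genes share 6.90% (Serpina3n), 4.25% (Serpina3c), 15.5% (Serpina3g), 10.6% (Serpina3f), 19.1% (Serpina3m) and 21.9% (Serpina3h) of their 50-base windows with relatives, so their counts could be split between copies. Serpina3h is annotated as a transcribed pseudogene.

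The antitrypsin genes Serpina1a to Serpina1e, copies of the elastase inhibitor that liver secretes, had counts in omentum fibroblasts and few elsewhere in these depots. Serpina1b had 0, 0 and 0.158 CPM in omentum, 0.0951, 0.253 and 0 CPM in mesentery and 0.228, 0 and 0 CPM in epididymal mesothelial cells. Its fibroblast values were 9.70, 2.84 and 3.78 CPM in omentum, 0.145, 0.386 and 0 CPM in mesentery and 0, 0.0891 and 0.371 CPM in epididymal fat. The groups did not overlap in omentum, where the log2 fold change was -6.46 ± 0.90 (SE, adjusted p = 2.54e-07), and overlapped in mesentery and epididymal fat. Its call over the mean of depots (-2.72 ± 0.82, adjusted p = 0.00668) was lost without epididymal fibroblast replicate 3 (-2.17, adjusted p = 0.193) and without mesentery fibroblast replicate 2 (-2.35, adjusted p = 0.0677). Serpina1c had 1.65, 0.373 and 0.908 CPM in omentum fibroblasts and no count in omentum mesothelial cells, at least 33.4-fold lower there when 3 counts are allowed over the mesothelial group. Serpina1a had 0.329, 0.0746 and 0.527 CPM in omentum fibroblasts and likewise no count in omentum mesothelial cells, at least 10.6-fold lower. Its call in omentum (adjusted p = 0.0276) was lost without any 1 of the 3 mesothelial libraries or without fibroblast replicate 3. Serpina1d and Serpina1e stayed at or under 0.278 CPM and 0.627 CPM in the 6 groups. From 29.5% (Serpina1b) to 79.3% (Serpina1c) of their windows recur in each other, so levels of single copies are uncertain.

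Serpinb6b, a cytosolic inhibitor that in mouse blocks granzyme A, was high in the mesothelial cells of all 3 depots. It had 549, 375 and 279 CPM in omentum, 338, 398 and 375 CPM in mesentery and 403, 541 and 492 CPM in epididymal mesothelial cells. The fibroblasts had 48.2, 43.8 and 38.4 CPM in omentum, 5.38, 3.89 and 5.43 CPM in mesentery and 6.48, 2.61 and 4.48 CPM in epididymal fat. No library overlapped between the cell types, and the log2 fold change was 5.39 ± 0.21 (SE, adjusted p = 6.23e-20). Farther along the chromosome 13 array, Serpinb6a, an inhibitor of cathepsin G, and its copy Serpinb6c had another pattern and were lower in mesothelial cells. Serpinb6a had 439, 361 and 272 CPM in omentum, 189.8, 289 and 239 CPM in mesentery and 247, 365 and 229.6 CPM in epididymal mesothelial cells. Its fibroblast values were 534, 476 and 562 CPM in omentum, 554, 453 and 519 CPM in mesentery and 661, 638 and 568 CPM in epididymal fat. Every mesothelial library was below every fibroblast library of its depot, and the gene was called lower in mesentery (-1.09 ± 0.19) and epididymal fat (-1.15 ± 0.19) but not in omentum (-0.55 ± 0.19). With the 10 acinar-rich libraries left out, which leaves 1 mesothelial and 1 fibroblast library in mesentery, the mesentery call was lost (-1.02, adjusted p = 0.0508). A share of 25.1% of its windows recurs in Nqo2 and other genes. Serpinb6c had 0 to 0.237 CPM in mesothelial libraries and 0.709 to 4.75 CPM in the fibroblasts of these depots, a log2 fold change of -4.82 ± 0.47 (SE, adjusted p = 1.64e-11). Its mesentery call was lost with the acinar-rich libraries left out (-4.38, adjusted p = 0.0529).

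Serpinb1a, which protects cells from neutrophil elastase and cathepsin G, had 430.4, 387 and 305 CPM in omentum, 280.5, 479 and 422 CPM in mesentery and 263, 463 and 228 CPM in epididymal mesothelial cells. The fibroblasts had 84.3, 65.5 and 66.4 CPM in omentum, 114, 83.1 and 84.7 CPM in mesentery and 65.0, 72.2 and 59.1 CPM in epididymal fat. Every mesothelial library was higher than every fibroblast library, with a log2 fold change of 2.24 ± 0.15 (SE, adjusted p = 1.28e-14). Its copy Serpinb1b stayed at or under 1.62 CPM in all mesothelial libraries, with 0.712, 0.982 and 0.502 CPM in epididymal mesothelial cells and no count in epididymal fibroblasts. That difference was at least 23.0-fold, with 3 counts allowed over the fibroblast group. Its call over the mean of depots (adjusted p = 0.0022) was lost without mesentery mesothelial replicate 1 (adjusted p = 0.0705). Serpinb8, known as a furin inhibitor in human, had 23.3, 30.0 and 34.1 CPM in omentum, 19.1, 21.4 and 22.7 CPM in mesentery and 20.4, 23.0 and 23.1 CPM in epididymal mesothelial cells. In fibroblasts it had 10.2, 6.17 and 6.38 CPM in omentum, 3.86, 3.80 and 4.04 CPM in mesentery and 4.96, 4.52 and 4.67 CPM in epididymal fat. It rose in each depot without overlap, by 2.20 ± 0.14 (SE, adjusted p = 2.65e-15) on the log2 scale over the mean. Serpinb9, the inhibitor of granzyme B, had 258, 173 and 136 CPM in omentum, 123, 182 and 133 CPM in mesentery and 86.0, 108 and 82.7 CPM in epididymal mesothelial cells. The fibroblasts had 73.6, 63.0 and 69.6 CPM in omentum, 55.8, 55.4 and 54.7 CPM in mesentery and 53.4, 46.4 and 53.7 CPM in epididymal fat. No library overlapped, and it rose by 1.24 ± 0.11 (SE, adjusted p = 3.19e-11) over the mean, called in omentum and mesentery. In epididymal fat the log2 fold change was 0.85 ± 0.19.

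Serpinb2, an inhibitor of plasminogen activators that is also found inside cells, was highest in the omentum. It had 22.7, 26.5 and 20.3 CPM in omentum, 0.285, 0 and 1.06 CPM in mesentery and 7.49, 0 and 0.821 CPM in epididymal mesothelial cells. The fibroblasts had 5.78, 4.75 and 11.2 CPM in omentum, 0, 0.119 and 0 CPM in mesentery and 1.95, 1.10 and 1.48 CPM in epididymal fat. It was not called within any depot. Its call over the mean (2.0 ± 0.72, adjusted p = 0.0288) was lost in 6 settings, among them without epididymal mesothelial replicate 1 (1.03, adjusted p = 0.238) and without mesentery mesothelial replicate 3 (1.52, adjusted p = 0.231). Serpinb5, or maspin, a member without known inhibitory activity, had 1.97, 3.86 and 1.78 CPM in mesentery mesothelial cells and no count in mesentery fibroblasts, at least 91.4-fold higher. In omentum it had 0.388, 0.165 and 0.895 CPM in mesothelial cells, against 1 count in all 3 fibroblast libraries, and in epididymal fat 0.456, 1.55 and 0.114 CPM, against 5 counts. It was called higher in all 3 depots. The omentum call was lost without omentum mesothelial replicate 3 (adjusted p = 0.0943), and the epididymal one without epididymal mesothelial replicate 2 (0.191), without epididymal fibroblast replicates 1 (0.0671) or 3 (0.072), and with DESeq2 (0.0746). Serpinb10, bomapin, was called higher over the mean and in mesentery, at 0.0912 to 1.37 CPM in mesothelial libraries, against 0 to 0.547 CPM in fibroblasts of these depots. The mesentery call was lost without the acinar-rich libraries (adjusted p = 0.335). Serpinb9b was called lower in mesentery alone (-1.93 ± 0.70, adjusted p = 0.0436), at 0.333, 0.538 and 0.500 CPM in mesothelial cells, against 2.61, 0.832 and 1.64 CPM in fibroblasts. That call was lost with DESeq2, with the replicate number as a block, without the acinar-rich libraries and in 6 of 34 settings that left out 1 library.

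Markers of other cells stood beside these clade B differences. The summed level of 16 leukocyte markers was 724 to 846 CPM in omentum mesothelial cells, against 418 to 579 CPM in omentum fibroblasts. In mesentery the sum was 683 to 1812 CPM in mesothelial cells, against 18.7 to 50.5 CPM in fibroblasts, and in epididymal fat 110.2 to 216 CPM, against 38.4 to 93.2 CPM. Cd74 held most of the sum in all 3 mesothelial groups, with a mean of 685 CPM in omentum mesothelial cells, against 362 CPM in omentum fibroblasts. Marker by marker the direction in omentum was mixed: of the 16, 1 was called higher in mesothelial cells and 3 lower, with a median log2 fold change of -1.63, and the pan-leukocyte gene Ptprc had 0.496 to 1.59 CPM, against 3.45 to 5.10 CPM in fibroblasts. The part of these transcripts in the levels of Serpinb6b, Serpinb1a, Serpinb9 and Serpinb8 was not tested. The 14 mesothelial markers summed to 797 to 1162 CPM in omentum fibroblasts, against 122 to 308 CPM in the fibroblasts of the other 2 depots. The levels of Serpinb6b and Serpinb2 were also higher in omentum fibroblasts than in those 2 groups, and the part of mesothelial transcripts in that was not tested.

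Serpini2, known from pancreas, followed the acinar libraries. It had 1.48, 0 and 0 CPM in omentum, 9.20, 1.96 and 0.0313 CPM in mesentery and 0.0854, 0 and 0.160 CPM in epididymal mesothelial cells. The fibroblasts had 4.91, 1.02 and 5.21 CPM in omentum and 3.40, 0.535 and 1.06 CPM in mesentery, and no count in epididymal fat. High values fell in libraries high in acinar markers in both cell types, and no depot had a call. Serpini1, neuroserpin, an inhibitor of tissue plasminogen activator in neurons, lay at 1.45 to 2.61 CPM in mesothelial cells and 0.357 to 3.58 CPM in fibroblasts of these depots, without a call in any depot. Serpina10, the protein Z-dependent inhibitor of factor Xa, and Serpina3i had 0.127 to 2.02 CPM and 0.427 to 1.88 CPM in mesothelial libraries, against 0.0911 to 0.647 CPM and 0.169 to 4.08 CPM in the depot fibroblasts, and neither was called. Serpina11, Serpina12 and Serpinb7 each stayed at or under 0.398 CPM in all 18 libraries of the 3 depots.

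**Figure D3:**
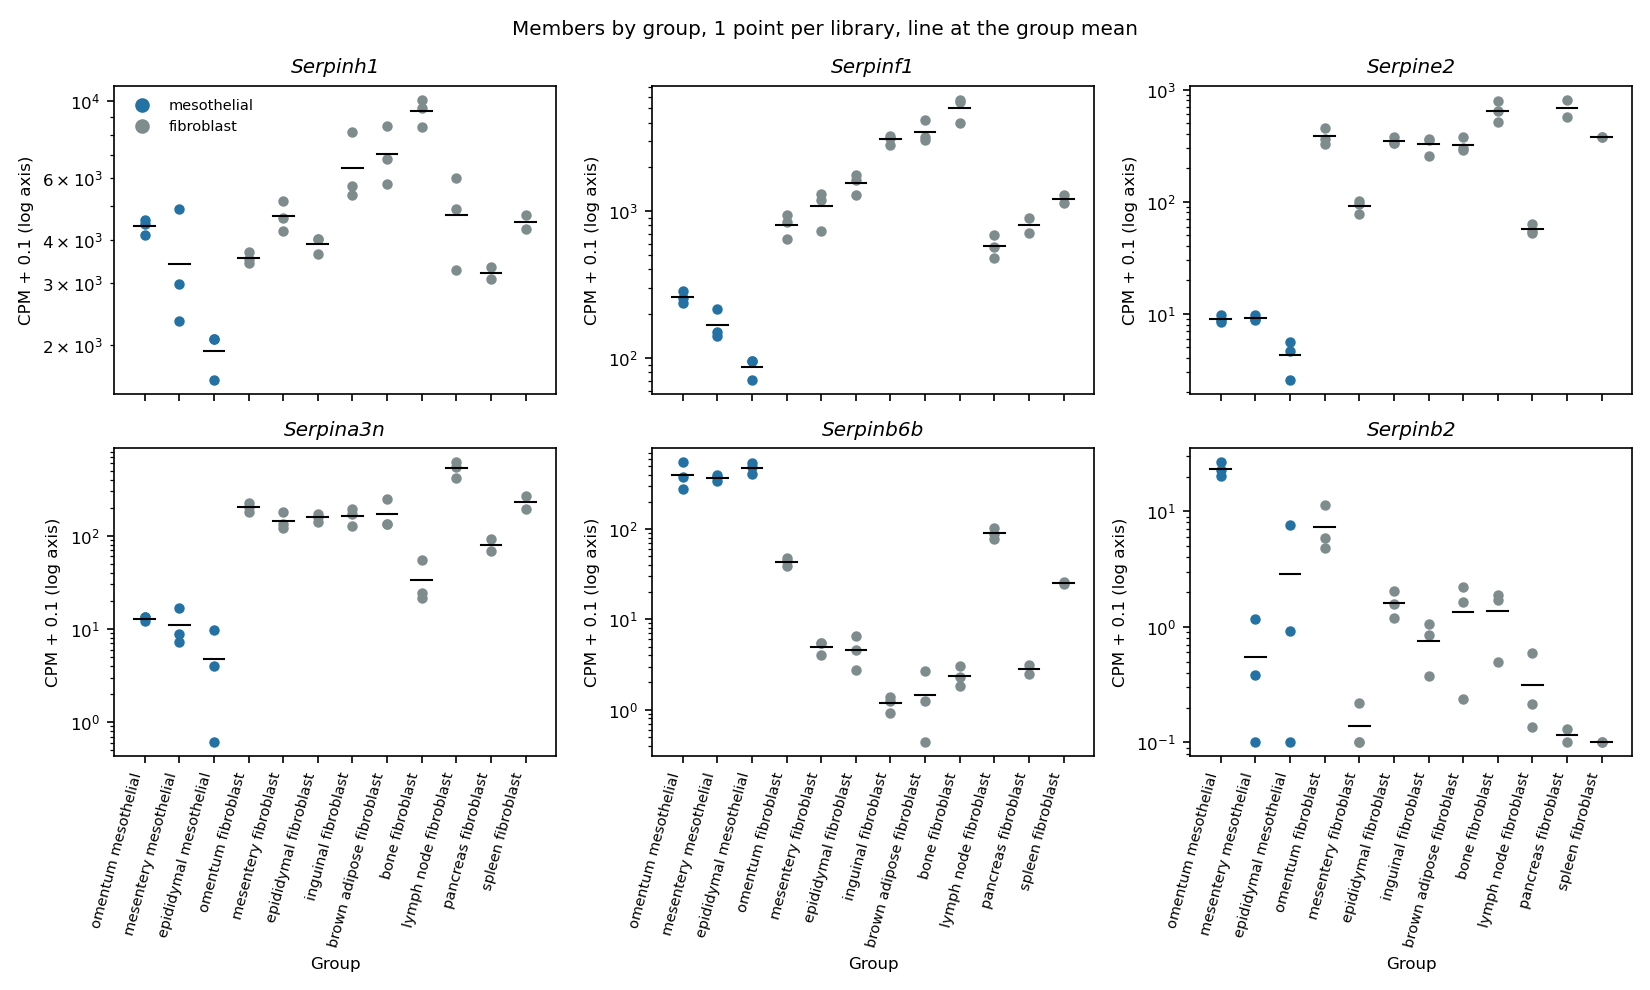
Levels of selected serpins as CPM + 0.1 on a log axis, by group, with 1 point per library, a line at the group mean, and mesothelial groups left of the fibroblast groups. The 9 mesothelial libraries of Serpinb6b lie at 279 to 549 CPM, above all fibroblast libraries, and those of Serpine2 at 2.46 to 9.72 CPM, below all fibroblast libraries.

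Whether the gap between mesothelial cells and fibroblasts was the same in the 3 depots was tested as an interaction, and 7 of 39 members were called, beside 10.9% of all genes. None of the 7 was called higher in 1 depot and lower in another. For Serpine2 the log2 fold changes were -5.43 in omentum, -3.32 in mesentery and -6.39 in epididymal fat (adjusted p = 3.14e-08 for the difference). Mesentery fibroblasts lay apart, at 78.1 to 101 CPM, against 329.8 to 457 CPM in the fibroblasts of the other 2 depots. For Serpinf1 they were -1.63, -2.68 and -4.16 in the same order (adjusted p = 1.33e-06). Omentum mesothelial cells had the highest mesothelial levels and epididymal fibroblasts the highest fibroblast mean of the 3. For Serpinb6b they were 3.20, 6.24 and 6.73 (adjusted p = 9.11e-07), the smallest where the fibroblast level was highest, in omentum. Serpinh1, with 0.30, -0.46 and -1.02, had an adjusted p of 0.00921. These 4 calls held under every alternative run. The other 3 were close to the threshold: Serpina3g (-2.09, -0.11 and -3.22, adjusted p = 0.0418), Serpina3i (-1.05, 1.30 and -0.37, adjusted p = 0.0463) and Serpina9 (-1.48, 0.02 and 3.13, adjusted p = 0.0493). They kept their call in 19, 20 and 11 of 34 settings that each left out 1 library.

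Serpina3i had 1.55, 0.992 and 1.82 CPM in omentum, 0.737, 0.791 and 1.88 CPM in mesentery and 0.427, 0.918 and 0.958 CPM in epididymal mesothelial cells. Its fibroblast values were 4.08, 2.36 and 2.55 CPM in omentum, 0.169, 0.624 and 0.607 CPM in mesentery and 1.06, 0.951 and 0.989 CPM in epididymal fat. The mesothelial libraries lay below the fibroblasts in omentum and above them in mesentery, and overlapped with them in epididymal fat. Serpina9, centerin, known from germinal center B cells, had 0.0705, 0.138 and 0.0790 CPM in omentum, 0.190, 0.0949 and 0 CPM in mesentery and 0.228, 1.14 and 0.456 CPM in epididymal mesothelial cells. In fibroblasts it had 0.203, 0.597 and 0 CPM in omentum, 0.0241, 0.297 and 0 CPM in mesentery and 0.106, 0 and 0.0927 CPM in epididymal fat. Its highest value was in epididymal mesothelial replicate 2, and without that library its call in epididymal fat was lost (adjusted p = 0.0894), as without epididymal fibroblast replicate 2 (0.0642). These are the libraries with the most epididymis markers of their groups, although the fibroblast one had no Serpina9 count. The part of epididymis transcripts in the Serpina9 levels was not tested.

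Mesothelial cells of the 3 depots differed from each other in 11 of 39 members, beside 12.3% of all genes. Omentum mesothelial cells stood out for Serpinb2 and Serpinf1, and epididymal ones for low Serpinh1 and higher Serpinf2. In pairs, 3 members were called for omentum against mesentery (beside 5.15% of all genes), 9 for omentum against epididymal fat (10.4%) and 5 for mesentery against epididymal fat (4.18%). Omentum was higher than mesentery in 1 (beside 2.36% of all genes) and lower in 2 (2.79%), and higher than epididymal fat in 6 (3.55%) and lower in 3 (6.83%). Mesentery was higher than epididymal fat in 2 (1.98%) and lower in 3 (2.21%). Serpinb2, at 20.3 to 26.5 CPM in omentum mesothelial cells and 0 to 7.49 CPM in the other 2 depots, was higher in omentum than in epididymal fat by 3.07 ± 0.71 (SE, adjusted p = 0.00427), though not with DESeq2 (adjusted p = 0.0795) or in a fit of only the libraries compared (adjusted p = 0.0752). Serpinf1 in omentum exceeded epididymal fat by 1.57 ± 0.22 (SE, adjusted p = 3.81e-06), Serpinh1 by 1.19 ± 0.21 (SE, adjusted p = 2.21e-04) and Serpina3g by 3.04 ± 0.62 (SE, adjusted p = 0.00157). No library of these 3 overlapped between omentum and epididymal mesothelial cells. Serpine2 (omentum over epididymal fat 1.10 ± 0.22, mesentery over epididymal fat 1.14 ± 0.22) and Serpinb9 (omentum over epididymal fat 1.03 ± 0.19) were close to the size required. Without epididymal mesothelial replicate 3 they were at 0.81, 0.85 and 0.96 and no longer called, and Serpinb9 was not called without omentum mesothelial replicate 1 (0.74). Serpinf2 was lower in omentum and mesentery than in epididymal fat (-3.89 ± 0.73 and -3.45 ± 0.68, adjusted p = 1.07e-04 and 4.24e-04), and the mesentery call was lost without the acinar-rich libraries (adjusted p = 0.0531).

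Serpina1f, a copy known from epididymis in mouse, had 0.0570, 4.88 and 0.0684 CPM in epididymal mesothelial cells, 0.0238, 0.0633 and 0.0313 CPM in mesentery ones and no count in omentum ones. A single library, replicate 2, held nearly all epididymal counts, and it was also the one with 20.6 CPM of epididymis markers. Omentum was at least 57.0-fold lower than epididymal fat, and the call was lost without that library (adjusted p = 0.342). Fibroblasts showed the same, with 0, 1.63 and 0.124 CPM in epididymal fat and at most 0.418 CPM in any other tissue. Serpinb5 was lower in omentum than in mesentery (-2.34 ± 0.60, adjusted p = 0.013). That call was lost without mesentery mesothelial replicate 2 (adjusted p = 0.0643), without omentum mesothelial replicate 2 (0.1) and without the acinar-rich libraries (0.464), where 1 mesentery and 2 omentum mesothelial libraries remain. Serpinb2, which was higher in omentum than in mesentery (5.71 ± 0.89, adjusted p = 6.64e-05), lost its call in that setting too (4.57, adjusted p = 0.118). The call of Serpina10 for the same pair (adjusted p = 0.0497) held in only 6 of 34 settings that left out 1 library. The remaining calls each ended without some single library. Mesentery was lower than epididymal fat in Serpina1f (adjusted p = 0.0217, and 0.889 without epididymal replicate 2). Mesentery was also lower in Serpina3c (-1.89 ± 0.46, adjusted p = 0.0101, and 0.117 without epididymal replicate 3) and higher in Serpinb5 (1.93 ± 0.57, adjusted p = 0.0404, and 0.148 without mesentery replicate 2). Omentum was lower than epididymal fat in Serpina9 (-2.55 ± 0.85, adjusted p = 0.0373), a call lost without epididymal replicate 2 (0.183) or without any 1 omentum library. Without the acinar-rich libraries, the calls between epididymal fat and the other depots were also lost for Serpina1f (omentum 0.161, mesentery 0.499), Serpina9 (omentum 0.0677), Serpina3c (mesentery 0.199), Serpinb5 (mesentery 0.362) and Serpine2 (mesentery 0.0894, all adjusted p), and Serpinb9 fell short of the required size (omentum 0.85). For omentum against mesentery, Serpina10 was lost as well (adjusted p = 0.726), and over the 3 depots together Serpina1f, Serpinb9, Serpina3c and Serpinb5 were.

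Across fibroblasts of the 9 tissues, 34 of 39 members were called, beside 44% of all genes. Lymph node fibroblasts led this variation, with a broad rise of clade A members, and bone fibroblasts had the highest Serpinf1 and Serpinh1 and the lowest Serpina3n and Serpina3c. Against the mean of the other 8 tissues, 21 members were called in lymph node (beside 16.4% of all genes), 20 in bone (19.5%), 14 in pancreas (11%) and 12 in omentum (10%). Inguinal fat had 8 (6.3%), spleen 8 (3.88%), brown adipose tissue 7 (6.41%), epididymal fat 6 (4.43%) and mesentery 5 (3.5%). Split by direction, lymph node was higher in 16 (beside 9.32% of all genes) and lower in 5 (7.13%), bone higher in 10 (12.8%) and lower in 10 (6.65%), and pancreas higher in 4 (8.65%) and lower in 10 (2.31%). Omentum was higher in 10 (7.64%) and lower in 2 (2.38%), and spleen higher in 8 (3.47%) and lower in 0 (0.416%). Inguinal fat was higher in 4 (3.35%) and lower in 4 (2.96%), brown adipose tissue higher in 4 (3.66%) and lower in 3 (2.75%), epididymal fat higher in 3 (2.5%) and lower in 3 (1.93%), and mesentery higher in 0 (2.19%) and lower in 5 (1.31%). These 9 comparisons share libraries.

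In lymph node fibroblasts 12 of 17 clade A members were called higher and 0 lower, with a median log2 fold change of 3.97 over the 11 with a count in every tissue, beside -0.02 over 22836 genes. Serpina10, which in plasma inhibits coagulation factor Xa, had 455, 641 and 449 CPM in lymph node, against 4.37 to 7.22 CPM in spleen and 0.0911 to 1.22 CPM in the other 7 tissues. No library of another tissue came near the lymph node ones, and the log2 fold change was 9.68 ± 0.22 (SE, adjusted p = 3.76e-25). Serpina3g had 228, 478 and 349 CPM in lymph node, against 17.0 to 30.0 CPM in omentum, 16.1 CPM in both spleen libraries and 0.335 to 7.79 CPM in the other 6 tissues (6.65 ± 0.28, adjusted p = 9.85e-17). Serpina3f had 52.4, 106 and 55.8 CPM, against 0.0288 to 4.31 CPM in the other 8 tissues (6.05 ± 0.29, adjusted p = 7.03e-18). Serpina3i had 13.8, 26.5 and 21.2 CPM, against 0 to 4.08 CPM (4.93 ± 0.24, adjusted p = 7.86e-19). In all 3, replicate 2 was the highest lymph node library and every lymph node library exceeded every other fibroblast library. Serpina3n, high in most tissues, was raised less, with 421, 614 and 551 CPM in lymph node, against 192 to 269 CPM in spleen and 21.6 to 249 CPM elsewhere (2.02 ± 0.29, adjusted p = 3.86e-06). Serpina3c, with a promoter nearly identical to that of Serpina3n, was not called, at 59.5, 63.1 and 64.9 CPM in lymph node (0.17 ± 0.23, adjusted p = 0.682), within its range of 7.35 to 161 CPM in the other tissues. Serpina3h had 7.53 to 12.5 CPM, against 0 to 2.03 CPM (3.97 ± 0.28, adjusted p = 9.42e-14).

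The antitrypsin copies were also highest in lymph node. Serpina1b had 36.8, 30.6 and 39.2 CPM in lymph node, against 2.84 to 9.70 CPM in omentum, 3.55 to 7.95 CPM in bone, 2.39 to 3.84 CPM in spleen and 0 to 0.594 CPM in the other 5 tissues (6.22 ± 0.33, adjusted p = 8.38e-20). Serpina1a had 13.1, 16 and 18.9 CPM in lymph node, against 2.03 to 4.94 CPM in bone and 0 to 0.853 CPM in the other 7 tissues. Serpina1c, Serpina1d and Serpina1e had 1.66 to 2.38 CPM, 4.94 to 8.57 CPM and 5.69 to 9.75 CPM in lymph node, against at most 1.65, 3.24 and 1.12 CPM in any other fibroblast library. All 5 were called higher without overlap, but only Serpina1b had counts in each of the other tissues, so no fold is given for the others. Serpina11 had 1.94, 1.69 and 1.28 CPM in lymph node, 0.762 and 0.403 CPM in spleen, 2 counts in omentum and none in the other 6 tissues, and 35.7% of its windows recur in Gm28577. Of 9 hepatocyte markers found in the annotation, the sum was 0.762 to 1.01 CPM in lymph node fibroblasts, against 0.311 to 41.3 CPM in the other fibroblasts. Mural cell markers, 8 genes of pericytes and smooth muscle, summed to 1529.7 to 1848 CPM in lymph node, against 46.9 to 288 CPM in the other tissues, and leukocyte markers to 364 to 905 CPM, against 13.9 to 579 CPM. Cd74 held most of the leukocyte sum in lymph node, with a mean of 566 CPM. Of the 16 leukocyte markers 5 were called higher there and 1 lower, beside 9.32% and 7.13% of all genes. The part of these other cells' transcripts in the serpin levels was not tested.

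**Figure D4:**
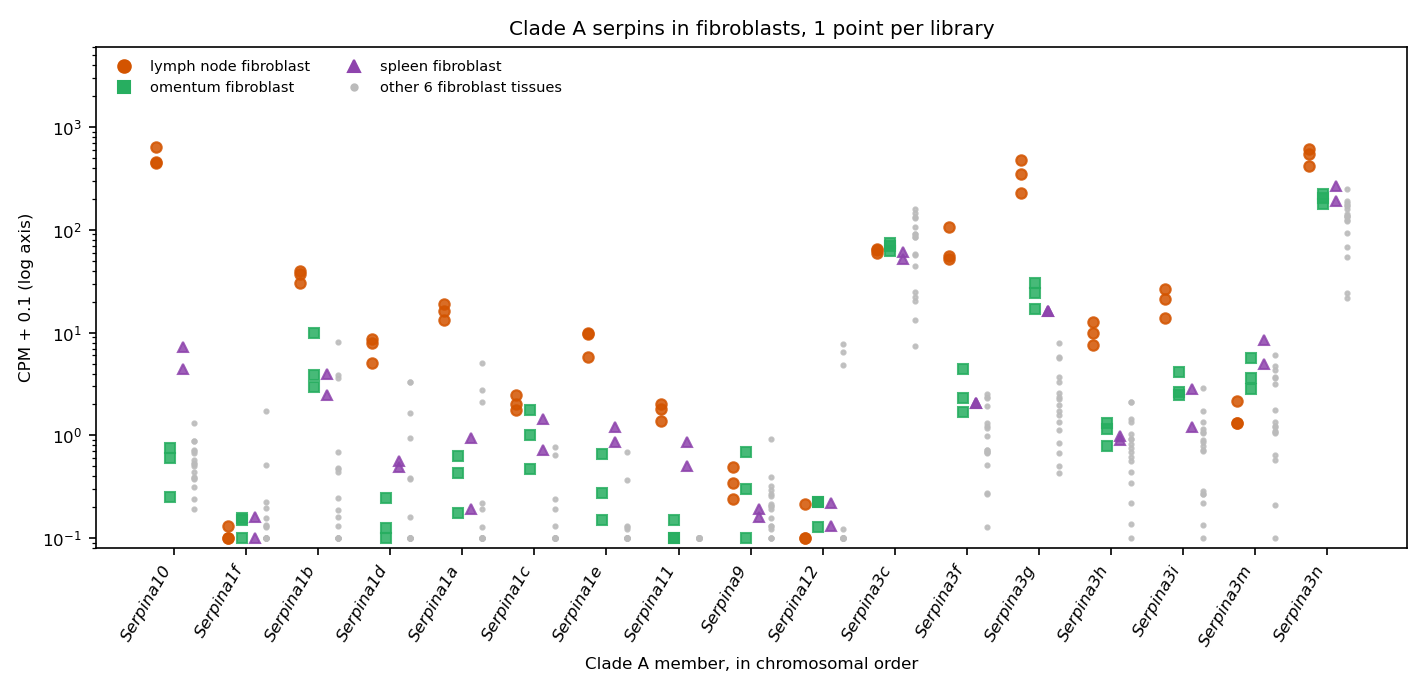
Clade A serpins in fibroblasts as CPM + 0.1 on a log axis, in chromosomal order, with 1 point per library and colours for lymph node, omentum, spleen and the other 6 tissues. The 3 lymph node libraries of Serpina10 lie at 449 to 641 CPM, against at most 7.22 CPM in any other tissue, while those of Serpina3c fall among the rest.

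Among clade B, lymph node fibroblasts were higher in 4 of 12 members and lower in 2. Serpinb6b had 88.1, 103 and 77.6 CPM, against 0.335 to 48.2 CPM in the other 8 tissues (4.27 ± 0.18, adjusted p = 1.2e-18). Serpinb8 had 41.4, 34.6 and 36.3 CPM, against 3.14 to 10.2 CPM (2.66 ± 0.14, adjusted p = 7.56e-17). Serpinb9 had 188, 233 and 155 CPM, against 19.1 to 73.6 CPM (1.91 ± 0.12, adjusted p = 1.95e-14). The lymph node libraries were above all other fibroblast libraries for these 3 genes and for Serpinb1b, at 6.05 to 8.85 CPM, against 0 to 1.61 CPM. Lower in lymph node were Serpinb6a, at 198, 193 and 160.0 CPM, against 183 to 957 CPM (-1.40 ± 0.16, adjusted p = 1.73e-08), with libraries that overlapped with bone, and Serpinb9b, a call (adjusted p = 0.0455) that held in 17 of 34 settings that left out 1 library. Serpine2 had 52.6, 54.6 and 63.5 CPM in lymph node, below all other tissues at 78.1 to 806 CPM (-2.61 ± 0.19, adjusted p = 3.79e-13), and Serpinf1 had 691, 569 and 481 CPM, against 642 to 5691 CPM (-1.55 ± 0.18, adjusted p = 2.21e-08), with overlap with omentum. In the same contrast the serpin cofactor Vtn was higher (4.29 ± 0.25), and the plasminogen activators Plat (-3.02 ± 0.23) and Plau (-2.51 ± 0.26) were lower; of 10 genes of plasminogen activation 2 were called higher and 4 lower, beside 16.4% of all genes called in lymph node (9.32% higher and 7.13% lower). Beside the same shares, of 12 cathepsins Ctsc (3.38 ± 0.15) and Ctss (4.48 ± 0.54) were called higher and Ctsh (-2.04 ± 0.16) lower. Serpinh1 had 4900.0, 3269 and 5992 CPM in lymph node, within 3081 to 10053 CPM of the other tissues, and of its 16 collagen folding partners 1 was called higher, P3h2 (5.27 ± 0.23), and 3 lower, a share of genes to be read against the same 16.4%.

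Bone fibroblasts had the highest mean levels of Serpinf1 and of the collagen chaperone Serpinh1. Serpinf1 had 3941, 5547 and 5691 CPM in bone, against 3047 to 4178 CPM in brown adipose tissue, 2796 to 3241 CPM in inguinal fat and 481 to 1755 CPM in the other 6 tissues. Bone and brown adipose tissue overlapped, and the log2 fold change against the mean of the 8 was 1.96 ± 0.14 (SE, adjusted p = 7.96e-14). Serpinh1 had 9564, 8388 and 10053 CPM in bone, against 3081 to 8479 CPM elsewhere. Its log2 fold change of 1.02 ± 0.15 (SE, adjusted p = 8.56e-07) was at the size required and fell under it without bone replicate 3 (0.97) and without the acinar-rich libraries (0.83). Of 16 collagen folding genes 7 were called higher in bone and 0 lower, beside 12.8% and 6.65% of all genes, among them the lysyl hydroxylase Plod2 (3.96 ± 0.16), the isomerase Fkbp10 (2.24 ± 0.12) and the prolyl hydroxylases P4ha3 (3.27 ± 0.26) and P4ha1 (1.27 ± 0.11), and the list's median was 0.93, beside 0.01 over all genes. Serpine2 had 639, 784 and 515 CPM, against 52.6 to 806 CPM (1.33 ± 0.14, adjusted p = 8.98e-10), with pancreas at 806 and 566 CPM alongside (1.43 ± 0.16, adjusted p = 2.94e-08). Serpina12, vaspin, known from adipose tissue in rat, had 4.70, 6.35 and 7.62 CPM in bone and at most 0.127 CPM in any other fibroblast library. It was the 1 member called higher without overlap in bone.

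Lower in bone were Serpina3n, at 54.8, 21.6 and 24.4 CPM, against 68.0 to 614 CPM (-2.45 ± 0.42, adjusted p = 4.26e-05), and Serpina3c, at 20.1, 13.3 and 7.35 CPM, against 22.1 to 161 CPM (-2.31 ± 0.29, adjusted p = 1.31e-07). Serpinb9 had 27.1, 24.4 and 19.1 CPM in bone, against 43.3 to 233 CPM (-1.50 ± 0.17, adjusted p = 4.77e-09). For these 3 all bone libraries lay below every library of the other 8 tissues. Serpina1a (2.03 to 4.94 CPM), Serpina1b (3.55 to 7.95 CPM) and Serpina1d (1.54 to 3.24 CPM) were called higher in bone as in lymph node, while Serpina1e had no count in bone. Serpinb10, described in hematopoietic cells, had 0.249, 0.780 and 0.553 CPM in bone and 0 to 0.547 CPM elsewhere. Transcripts of neutrophil granule proteases were present in bone, with Elane at 17.1 ± 9.41 CPM, Prtn3 at 3.79 ± 1.73 CPM and Ctsg at 1.89 ± 1.33 CPM (SD, n = 3), and 7 megakaryocyte markers summed to 18.1 to 50.5 CPM, against 3.67 to 26.0 CPM. Their part in the serpin levels was not tested. The calls of Serpina3i, Serpina3h, Serpina3g, Serpina3m, Serpinb6a, Serpinc1 and Serpinb7 in bone each ended without some single library. For Serpinc1 (1.32 ± 0.44) these were bone replicates 1 (adjusted p = 0.0774) and 3 (0.133), and for Serpinb7, megsin, at 0.605, 1.82 and 0.237 CPM, replicate 2 (0.546).

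Several members called higher in lymph node were called higher in omentum fibroblasts as well. Markers of other cells were higher there too: 11 of 16 leukocyte markers were called higher and 0 lower against the other 8 tissues, with a median log2 fold change of 2.16, and 11 of 14 mesothelial markers were called higher and 0 lower, with a median of 4.63. Their part in the serpin levels was not tested. Serpinb2 had 5.78, 4.75 and 11.2 CPM in omentum, above 0 to 2.09 CPM in the other 8 tissues, and was called higher (adjusted p = 1.15e-07). Serpinb6b had 48.2, 43.8 and 38.4 CPM in omentum, against 24.4 to 25.7 CPM in spleen and 0.335 to 6.48 CPM in the 6 tissues other than lymph node (3.10 ± 0.19, adjusted p = 3.69e-14). Serpina3g (2.28 ± 0.31), Serpina3i (1.81 ± 0.31) and Serpina1b (3.18 ± 0.41) were called higher as well, and Serpina1c and Serpinb10 without a fold, since tissues among the 8 had no count. Serpina1b was not called with DESeq2 (adjusted p = 0.0641), Serpind1 (1.88 ± 0.49) was not called without omentum replicate 2 (adjusted p = 0.0724), and Serpina3m (1.25 ± 0.37) not without omentum replicate 1 (0.207). Serpinb10 was not called without omentum replicate 2 (adjusted p = 0.0993), and part of its windows also occurs in Serpinb2, which was called higher there too. Lower in omentum were Serpina10 (-1.80 ± 0.44), not without omentum replicate 1 (adjusted p = 0.0546), and Serpinf1 (-1.02 ± 0.17), whose change fell under 1 log2 unit without omentum replicate 2 (-0.78) and with relative log expression scaling (-0.93). In spleen all 8 calls were higher. Serpinb6b (25.7 and 24.4 CPM, 2.20 ± 0.23, adjusted p = 4.90e-08), Serpina11 and Serpina10 (7.22 and 4.37 CPM, 2.40 ± 0.32, adjusted p = 2.70e-06) kept their call under every alternative that gave an adjusted p. Serpina3m, at 8.44 and 4.90 CPM in spleen, against 0 to 6.0 CPM (2.10 ± 0.40, adjusted p = 6.75e-04), lost it without spleen replicate 1 (adjusted p = 0.176), as did Serpina1b and Serpina1c. Serpina3g and Serpina1e lost it without either spleen library.

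Among fibroblasts, Serpini2 stood at 29.5 and 161 CPM in pancreas, at 4.91, 1.02 and 5.21 CPM in omentum, 3.40, 0.535 and 1.06 CPM in mesentery and 2.25 and 0.0310 CPM in spleen, 1 count in bone and none in the other 4 tissues. Its 2 pancreas libraries differed in the same direction as their acinar markers, which summed to 38022 CPM in replicate 1 and 187791 CPM in replicate 2. Over all 34 libraries, both cell types, every library with at least 1 CPM of Serpini2 had at least 908 CPM of these markers. Serpini2 was called higher in pancreas (adjusted p = 1.89e-07) and omentum (adjusted p = 0.0089), and both groups consist of libraries with at least 1000 acinar CPM. Serpina3i was lower in pancreas, at 0.172 and 0 CPM (-3.73 ± 0.75, adjusted p = 4.57e-04). This call and those of Serpine2 and Serpini2 held without either pancreas library, while 10 other pancreas calls were lost without replicate 1 or replicate 2. Across the 9 tissues, Serpini1 was no longer called without pancreas replicate 2 (adjusted p = 0.0509). Serpini1 had 1.89 and 8.14 CPM and its call (1.52 ± 0.42, adjusted p = 0.0125) was lost without replicate 2 (adjusted p = 1).

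**Figure D5:**
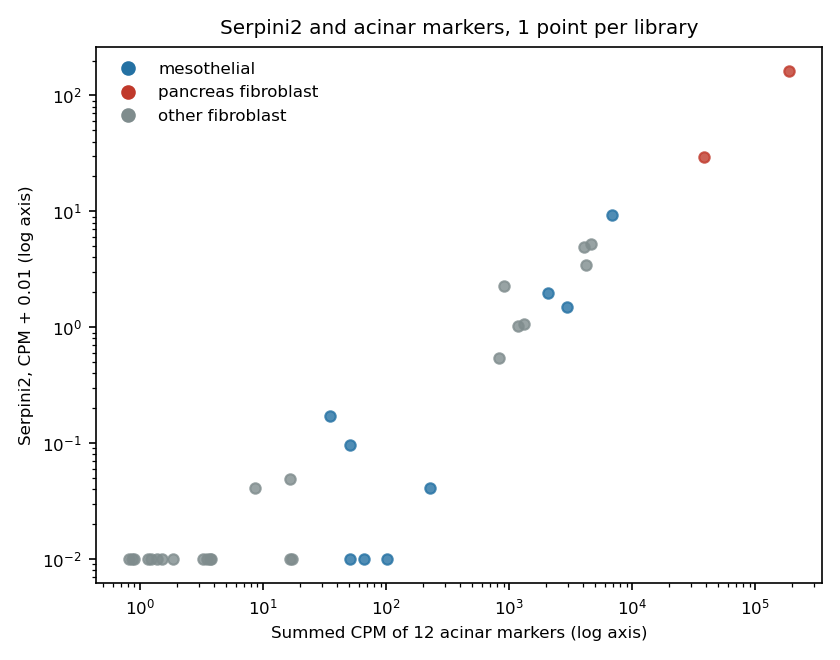
Serpini2 as CPM + 0.01 against the summed CPM of 12 acinar markers, both on log axes, with 1 point per library and colours for mesothelial, pancreas and other fibroblast libraries. The pancreas libraries, at 29.5 and 161 CPM of Serpini2, stand at the upper right, and the lymph node, brown adipose, inguinal and epididymal fibroblast libraries, with under 4 CPM of acinar markers, had no Serpini2 count.

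Among fat depots, fibroblasts of visceral fat (omentum, mesentery and epididymal) and of subcutaneous fat (inguinal and brown adipose) differed in 6 members, beside 8.23% of all genes, with 3 higher in visceral fat (beside 4.29% of all genes) and 3 lower (3.94%). Serpinf1 had 642 to 1755 CPM in the 9 visceral libraries, against 2796, 3241 and 3160.0 CPM in inguinal and 4178, 3189 and 3047 CPM in brown adipose fibroblasts. All visceral libraries lay below all subcutaneous ones (-1.56 ± 0.13, adjusted p = 7.69e-11). Serpinb6b had 2.61 to 48.2 CPM in visceral libraries, against 1.29, 0.809 and 1.14 CPM in inguinal and 1.15, 2.55 and 0.335 CPM in brown adipose fibroblasts, higher without overlap (3.03 ± 0.25, adjusted p = 7.64e-11). In the same comparison 13 of 14 mesothelial markers were called higher and 0 lower, with a median log2 fold change of 5.46, and they summed to 122 to 1162 CPM in visceral fibroblasts, against 45.8 to 163 CPM in subcutaneous ones. Their part in the Serpinb6b difference was not tested. Serpina3g was higher in visceral fat (2.69 ± 0.41, adjusted p = 1.63e-05), at 1.49 to 30.0 CPM, against 0.335 to 3.24 CPM. Serpinb1b was lower, at 0 to 0.577 CPM with no count in epididymal fibroblasts, against 0.622 to 1.61 CPM, and Serpinb7 was lower (-2.73 ± 0.60, adjusted p = 9.56e-04), at 0 to 0.398 CPM, against 0.172 to 1.73 CPM. Serpina1b was called higher (adjusted p = 0.0448), at 2.84 to 9.70 CPM in omentum and 0 to 0.386 CPM in the other 2 visceral depots, against 0 to 0.594 CPM, and this call was kept in 19 of 34 settings that left out 1 library.

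Against the other 8 tissues, inguinal fibroblasts were higher in Serpina3c (130.1, 161 and 146 CPM, 1.54 ± 0.21, adjusted p = 2.14e-06) and brown adipose ones in Serpinb6a (886, 957 and 781 CPM, 1.14 ± 0.13, adjusted p = 6.70e-08) and Serpinf1 (1.35 ± 0.14, adjusted p = 1.31e-08). Both were lower in Serpinb6b (-2.89 ± 0.33 and -2.54 ± 0.32) and Serpina3g (-2.26 ± 0.49 and -3.40 ± 0.55). Serpina1b, at 0 to 0.0617 CPM, was called lower in inguinal fibroblasts (adjusted p = 0.00154), except without brown adipose replicate 2 or pancreas replicate 2, which leaves that tissue with no count. Serpina10 was lower in both (-2.09 ± 0.47 and -1.37 ± 0.42), although in brown adipose tissue its call ended without any 1 of the 3 libraries of that tissue. Serpinf1 in inguinal fibroblasts (1.15 ± 0.14) fell short of the required size without the acinar-rich libraries (0.97). Serpine2 was lower in mesentery fibroblasts, at 101, 78.1 and 95.3 CPM, against 254 to 806 CPM in the 7 tissues other than lymph node (-1.84 ± 0.18, adjusted p = 6.08e-09), and this call held under every alternative run, while the other 4 in mesentery, all lower (Serpinb8, Serpina3f, Serpina3g and Serpina10), each ended without some single library. In epididymal fibroblasts Serpinb1b had no count and was called lower (adjusted p = 0.00472), against 6.05 to 8.85 CPM in lymph node and 0 to 1.61 CPM in the other 7 tissues, Serpinb6c was higher at 3.68, 4.75 and 2.66 CPM (1.67 ± 0.32, adjusted p = 3.07e-04), and Serpina10 was lower (-2.59 ± 0.51, adjusted p = 7.07e-04). Serpinb1a, at 29.4 to 122 CPM, and Serpine3, at 0.0624 to 0.683 CPM, were called in no single tissue, except Serpine3 in pancreas (adjusted p = 0.0335), a call lost without either pancreas library.

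Further fibroblast calls were lost without the acinar-rich libraries, which leaves 7 tissues. Across tissues these were Serpind1 (adjusted p = 0.185), Serpinc1 (0.0579), Serpini1 (0.146), Serpinb2 (0.291) and Serpinb7 (0.102). In mesentery they were Serpina3g (adjusted p = 0.367), Serpina10 (0.0962) and Serpina3f (0.137), and in epididymal fat Serpina1f (0.223) and Serpinc1 (0.16). In inguinal fat Serpina3h (0.88) and Serpina3i (0.71) and in brown adipose tissue Serpina3c (0.93) fell under 1 log2 unit, and Serpinb7 was lost in brown adipose tissue (adjusted p = 0.0559) and bone (0.161). In lymph node the calls of Serpinb9b (adjusted p = 0.0726) and Serpind1 (0.0696), both lower, were lost.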

How the data were processed

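The authors deposited, for each of 34 libraries, a table of whole-number counts per Ensembl gene, which per the file headers are reads aligned uniquely to a gene model. Per the submitters' processing notes the work used Salmon and GRCm38; the Salmon version, the annotation release, strand use and the step that gave the counts are not given in the sources used here. Symbols and positions were taken from GENCODE M21 and promoters from RefSeq (GRCm38.p6), where 33 of 39 members were listed. Libraries held 28.7 M to 42.3 M counts. Genes were filtered with filterByExpr (minimum count 10), scaled by TMM and fitted over all 12 groups with edgeR 4.0.16 quasi-likelihood tests in R 4.3.3 with limma 3.58.1, tested first on simulated data; DESeq2 1.42.0 was an alternative. CPM are per TMM-scaled total of tested genes. A call needs an adjusted p (Benjamini-Hochberg, all genes) under 0.05 and a log2 fold change, or range of fold changes where several are tested together, of at least 1. Every member called or reaching a mean of 10 CPM was to be named, with library values for those reaching 20 CPM or called between depots. Counts cover all 39 members, 1 of which is not reported here by name. Members, gene lists and tests were chosen with earlier results of these data known. Windows of 50 bases shared with other transcripts mark members whose counts are uncertain. Fold bounds against groups without counts allow 3 counts over the group and cover counting error only. Alternatives were another scaling, another test, no filter, a replicate block, fits of only the libraries compared and leaving out each library; leaving out acinar-rich libraries was added after the data were seen.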

Additional observations from a re-analysis of the deposited data

Results flagged for a closer look

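Of the 39 serpins, 7 had a gap between mesothelial cells and fibroblasts that differed between omentum, mesentery and epididymal fat by a test of the difference itself (edgeR interaction, adjusted over all genes), beside 10.9% of all genes. Serpine2 had an adjusted p of 3.14e-08, Serpinb6b of 9.11e-07, Serpinf1 of 1.33e-06 and Serpinh1 of 0.00921. Serpina3g had an adjusted p of 0.0418, Serpina3i of 0.0463 and Serpina9 of 0.0493, near the threshold. The Serpine2 difference went with a lower fibroblast level in mesentery (78.1 to 101 CPM, against 329.8 to 457 CPM in the other 2 depots), and the Serpinb6b difference with a higher fibroblast level in omentum (38.4 to 48.2 CPM, against 2.61 to 6.48 CPM), where mesothelial markers in the fibroblast libraries were also highest (797 to 1162 CPM, against 122 to 308 CPM). Their part in the difference was not tested. The highest Serpina9 library was epididymal mesothelial replicate 2 (1.14 CPM), which also had the most epididymis markers among the mesothelial libraries (20.6 CPM).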

How the results depend on the processing

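Of 245 calls of members over all comparisons, 154 held under every alternative that gave an adjusted p, 91 were lost under at least 1 and 0 changed direction; DESeq2 gave no adjusted p for 9. Depth limits what can be said of the 11 members that stayed under 2 CPM in every group. Without a filter on low counts, the members called were 14 for the difference between depots (7 with it), 5 for omentum against mesentery mesothelial cells (3) and 10 for mesentery against epididymal ones (5), where all genes called were 1904 (1075). With only the libraries compared, all genes called for omentum against epididymal mesothelial cells were 1612 (2668), and members for mesentery against epididymal ones 1 (5). DESeq2 called 1 member for omentum against mesentery mesothelial cells (3) and 2 for mesentery against epididymal ones (5). With the 10 acinar-rich libraries left out, where mesentery keeps 1 mesothelial and 1 fibroblast library, all genes called in mesentery were 2575 (4701) and members between the 3 mesothelial depots 7 (11). For omentum against mesentery mesothelial cells edgeR then called 0 members, with 2 at an unadjusted p under 0.05, and 500 genes (1324), and for mesentery against epididymal ones 1 member and 557 genes. This setting was chosen after seeing the data and could not be run for omentum, for the mean of depots, for the difference between depots, or for pancreas, since all omentum and pancreas fibroblast libraries are acinar-rich; the tissue comparisons then ran over 7 tissues. Leaving out each library in turn gave 4 to 9 members and 1767 to 3418 genes for the difference between depots (4 members without epididymal fibroblast replicate 1, epididymal fibroblast replicate 2 or omentum mesothelial replicate 2; 1767 genes without omentum fibroblast replicate 2 and 1828 without omentum mesothelial replicate 2), 1 to 4 members and 845 to 1447 genes for omentum against mesentery mesothelial cells (1 member and 845 genes without omentum mesothelial replicate 2, 868 genes without mesentery mesothelial replicate 1), 1312 to 2951 genes for omentum against epididymal ones (1312 without omentum mesothelial replicate 2), and 3 to 6 members and 746 to 1153 genes for mesentery against epididymal ones (3 members without epididymal mesothelial replicate 3 or mesentery mesothelial replicate 2). The other counts stayed within 1.5 times of those reported: members ranged over 19 to 21 for the mean of depots, 15 to 19 in omentum, 12 to 13 in mesentery, 17 to 20 in epididymal fat, 32 to 36 across tissues and 90 to 105 (101) over the 9 single-tissue comparisons. The causes were not tested. Same-numbered mesothelial and fibroblast libraries of a depot had correlated deviations of -0.25 to 0.23, with 0.23 for epididymal replicates 2 and 3, and 16 of 34 libraries matched best with their own number. Not every pair was over 0.1, so the numbers were not taken as pairs, although both epididymal replicate 2 libraries had the most epididymis markers of their groups. With the replicate number as a block, members called were 20 for the mean of depots, 17, 12 and 19 in the 3 depots, 7 for their difference and 99 over the tissues. The median of all genes in epididymal mesothelial cells over fibroblasts was 0.33, and 0.24 with relative log expression, 0.23 with DESeq2 and 0.06 with only the libraries compared; against that shift the Serpinh1 change there of -1.02 is relative.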

Other observations

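Inhibitors outside the serpin family were also divided between the cell types. Of 15 other protease inhibitors tested, 6 were called higher in mesothelial cells over the mean of 3 depots and 3 lower, beside 21.4% of all genes; the list was chosen with earlier results of these data known. Slpi, which inhibits leukocyte elastase, had 150.4 to 286 CPM in omentum, 1585 to 2999 CPM in mesentery and 2173 to 6206 CPM in epididymal mesothelial cells. In fibroblasts Slpi had 8.01 to 15.0 CPM in omentum, 5.56 to 32.5 CPM in mesentery and 13.7 to 29.3 CPM in epididymal fat, below every mesothelial library. Spint2, a membrane inhibitor of serine proteases, was higher in mesothelial cells (3.88 ± 0.29, adjusted p = 1.54e-13, edgeR). Itih5, which binds hyaluronan and shields it in the matrix, was lower (-5.16 ± 0.17, adjusted p = 5.90e-22, edgeR), at 28.3 to 55.4 CPM in omentum mesothelial cells, against 1132 to 1296 CPM in omentum fibroblasts. Pi16 (-6.76 ± 0.22) and Pi15 (-4.03 ± 0.16), members of the CAP family named as peptidase inhibitors, were lower as well. R3hdml, a relative of both, had 8.18 to 27 CPM in bone fibroblasts and no count in lymph node, omentum, mesentery or epididymal fibroblasts.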
